A study of Mus musculus with 8 samples.

Results

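The genes described here are 10 enzymes and receptors of the prostaglandin and leukotriene pathway, *Pla2g4a*, *Ptgs1*, *Ptgs2*, *Ptges*, *Hpgds*, *Ptger2*, *Ptger4*, *Alox5*, *Alox5ap* and *Ltc4s*, taken by symbol from a table of 50615 genes, of which 50295 had a symbol. RNA was measured in bone marrow-derived macrophages (BMDMs), cells grown from mouse marrow with the growth factor M-CSF at 20 ng/ml for 6 days. All mice carried *Ncoa6* fl/fl on a C57BL/6 background. *Ncoa6*-KO mice also carried LysM CRE, a Cre recombinase driven from the lysozyme locus *Lyz2* and active in myeloid cells, and *Ncoa6*-sufficient mice did not. Deletion of *Ncoa6*, a transcriptional coactivator gene, thus depends on how many cells the recombinase reaches. In the study the recombinase removes only part of the gene, so counts over the whole of *Ncoa6* do not measure how many cells lost it. The cells were kept in medium alone or received LPS, a component of the bacterial wall, at 100 ng/ml for 4 h and then monosodium urate (MSU) crystals (200 µg/ml, 2 h). There were 2 libraries per group, from different mice, and 8 in all. Ages, and whether 1 mouse gave both a medium and a stimulated library, are not given in the sources used here. All 10 genes passed the filter on low counts, a sum of at least 10 over the 8 libraries, as did 17625 genes in all.

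Eicosanoids are signalling lipids made from arachidonic acid. Cytosolic phospholipase A2 (*Pla2g4a*) frees arachidonic acid from membranes, and the cyclooxygenases COX-1 (*Ptgs1*) and COX-2 (*Ptgs2*) turn it into prostaglandin H2. Terminal synthases then make single products, such as PGE2 by microsomal PGE synthase (*Ptges*) and PGD2 by hematopoietic PGD synthase (*Hpgds*), and PGE2 acts on receptors that include EP2 (*Ptger2*) and EP4 (*Ptger4*), which raise cyclic AMP. In the other branch 5-lipoxygenase (*Alox5*), helped by its membrane partner FLAP (*Alox5ap*), makes leukotriene A4, and LTC4 synthase (*Ltc4s*) joins it to glutathione. COX-2 is the inducible and COX-1 the constitutive form in macrophages.

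The sequences just upstream of the starts of both cyclooxygenases and of *Ptges* are shown because the largest rise (*Ptgs2*), a large rise of the next enzyme on the PGE2 route (*Ptges*) and the change between genotypes that was called under both culture conditions (*Ptgs1*) belong to these genes. Each run holds the 250 bases before the RefSeq start on GRCm38.p6, read 5′ to 3′ on the strand of the gene, with motif matches in capitals. *Ptgs2* is at chr1:150099781-150100030 on the plus strand, *Ptges* at chr2:30903298-30903547 on the minus strand and *Ptgs1* at chr2:36230176-36230425 on the plus strand. The starts of *Ptgs2* and *Ptgs1* are also the starts of the genes in GENCODE, whereas that of *Ptges* lies inside the GENCODE gene, whose first start is at base 30929863.
Ptgs2: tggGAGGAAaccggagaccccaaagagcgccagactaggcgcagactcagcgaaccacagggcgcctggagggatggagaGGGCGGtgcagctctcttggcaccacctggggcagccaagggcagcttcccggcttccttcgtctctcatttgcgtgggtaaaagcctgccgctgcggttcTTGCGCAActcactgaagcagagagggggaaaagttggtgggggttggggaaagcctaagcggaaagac
Ptges: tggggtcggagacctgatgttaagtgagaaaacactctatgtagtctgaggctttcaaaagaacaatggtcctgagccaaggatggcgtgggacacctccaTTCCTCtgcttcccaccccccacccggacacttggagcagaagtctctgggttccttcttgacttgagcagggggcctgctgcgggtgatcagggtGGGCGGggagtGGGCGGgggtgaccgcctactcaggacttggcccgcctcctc
Ptgs1: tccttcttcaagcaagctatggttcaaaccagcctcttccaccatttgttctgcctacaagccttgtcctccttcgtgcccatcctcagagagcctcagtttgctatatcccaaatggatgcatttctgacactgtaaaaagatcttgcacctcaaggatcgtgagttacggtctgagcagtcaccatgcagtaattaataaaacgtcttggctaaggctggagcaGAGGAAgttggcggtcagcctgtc

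Motifs were searched on both strands of 300-base windows, 250 bases before and 50 after the start, and 9 of the 10 genes had such a window. In *Ptgs2* the capitals mark GAGGAA (PU.1) at -247 to -242, GGGCGG (GC box) at -170 to -165 and TTGCGCAA (C/EBP) at -69 to -62, counted from the start. The C/EBP letters are rare, with a match in 60 of 32851 windows (0.183%), whereas GAGGAA stood in 28.3% and GGGCGG in 35.7% of windows. In *Ptges* the capitals mark GAGGAA, there on the reverse strand and so written TTCCTC, and a pair of GC boxes, and in *Ptgs1* they mark GAGGAA at -24 to -19. Past its start *Ptgs2* holds CACGTG (E-box, 7.15% of windows) at 17 to 22, which overlaps TGACG (the shorter form of the CRE, 20.8%) on the reverse strand at 14 to 18. These are the capitals of the 30 bases at chr1:150100035-150100064.
Ptgs2 past its start: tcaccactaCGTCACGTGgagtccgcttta

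Among the 9 genes with a window GAGGAA was found in 6, GGGCGG in 4, CCAAT (37.4% of all windows) in 3 and TATAAA (13.6%) in 1. The E-box, C/EBP and short CRE letters were found in *Ptgs2* alone. *Pla2g4a* had a window at each of 2 RefSeq starts, and its CCAAT and TATAAA matches were at the second. No member window held TGACGTCA (CRE, 1.79%), TGANTCA (AP-1, 7.81%) or the NF-kB motif (4.51%). These matches describe letters in the windows and were not tied to any measurement of binding.

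Total expected counts ranged from 25281955 to 33673552 per library. *Ncoa6* itself had 1515 and 1405 normalized counts in *Ncoa6*-sufficient BMDMs before stimulation against 784 and 622 in *Ncoa6*-KO BMDMs, and 1297 and 1173 against 563 and 526 with LPS + MSU (log2 fold change -1.05 and -1.18, edgeR adjusted p = 0.00236 and 0.00189). Without *Ncoa6*-sufficient library 1 in medium the first of these values was -0.996 with an adjusted p of 0.0578. All 8 macrophage markers were measured in every library, at a summed level that was lower in *Ncoa6*-KO BMDMs (248900 to 288000 normalized counts in medium and 367000 to 393400 with LPS + MSU) than in *Ncoa6*-sufficient BMDMs (388700 to 456100 and 508000 to 577700), and 32.9% to 59.7% of that level was *Lyz2*, the locus that carries the Cre. Without *Lyz2* the sums were 136900 to 160400 against 178800 to 184000 in medium and 243700 to 264000 against 290600 to 307400 with LPS + MSU. In either comparison 3 of the 8 markers were called lower, *Lyz2*, *Fcgr1* and either *Cd14* (medium) or *Itgam* (LPS + MSU), and *Cd68*, *Adgre1*, *Csf1r* and *Mertk* were not called. Of markers of other eicosanoid-producing cells, 6 of 8 for mast cells, 2 of 4 for basophils, 3 of 5 for eosinophils and 1 of 9 for neutrophils (*Ly6g*) stayed at or under 3 counts in every library. The summed neutrophil markers, mostly *S100a8*, *S100a9*, *Ngp* and *Ltf*, stood at 442 to 511 normalized counts in medium and 753 to 991 with LPS + MSU, and 0 of the 8 tested differed between genotypes by the adjusted p of edgeR, with 1 in medium (*Ngp*) and 0 with LPS + MSU at an unadjusted p under 0.05. *Ccr3* made up at least 96.2% of the summed eosinophil level, at 178 to 892 normalized counts, and was not called (log2 fold change -1.09 and -0.82, edgeR adjusted p = 0.0933 and 0.159). The scaling of libraries mattered for the response to LPS + MSU: with total counts in place of TMM the median log2 fold change over all genes moved by -0.661 in the *Ncoa6*-sufficient and by -0.632 in the *Ncoa6*-KO genotype. The calls then split into 2498 higher and 9653 lower in *Ncoa6*-sufficient BMDMs, against 4362 and 5375 with TMM, and into 2540 and 9313, against 4446 and 4913, in *Ncoa6*-KO BMDMs.

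Per kilobase of exon, the macrophages in medium carried mostly *Alox5ap* and *Hpgds* among the 10 genes. In *Ncoa6*-sufficient BMDMs *Alox5ap* stood at 4471 ± 350.3 and *Hpgds* at 1046 ± 44.5 normalized counts per kb (SD, n = 2), followed by *Ptgs1* at 174.9 ± 2.25. *Pla2g4a* (114 ± 8.65) and *Ptger4* (112 ± 8.57) did not differ beyond their spread. *Ltc4s*, *Ptger2* and *Ptges* came next with 70.9 ± 11.3, 32.0 ± 2.32 and 27.2 ± 0.698, and *Alox5* (5.56 ± 1.92) and *Ptgs2* (4.88 ± 0.521) were lowest and within their spread of each other. With LPS + MSU *Ptgs2* moved from the last to the first place, at 18709 ± 620.5 per kb, ahead of *Alox5ap* (3836 ± 352), *Hpgds* (738 ± 40.5), *Pla2g4a* (589.8 ± 93.6) and *Ptges* (368 ± 1.68). Among 17587 genes with an exon length, *Ptgs2* ranked between 12278 and 13469 per kb in the 4 medium libraries and between 79 and 99 in the 4 libraries with LPS + MSU. In *Ncoa6*-KO BMDMs the first and last places were held by the same genes in medium, at 4101 ± 123 per kb for *Alox5ap* and 6.34 ± 2.96 for *Ptgs2*, and with LPS + MSU *Ptgs2* was again first (15583 ± 1842) and *Ptger2* last (4.82 ± 0.0481).

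**Figure D1:**
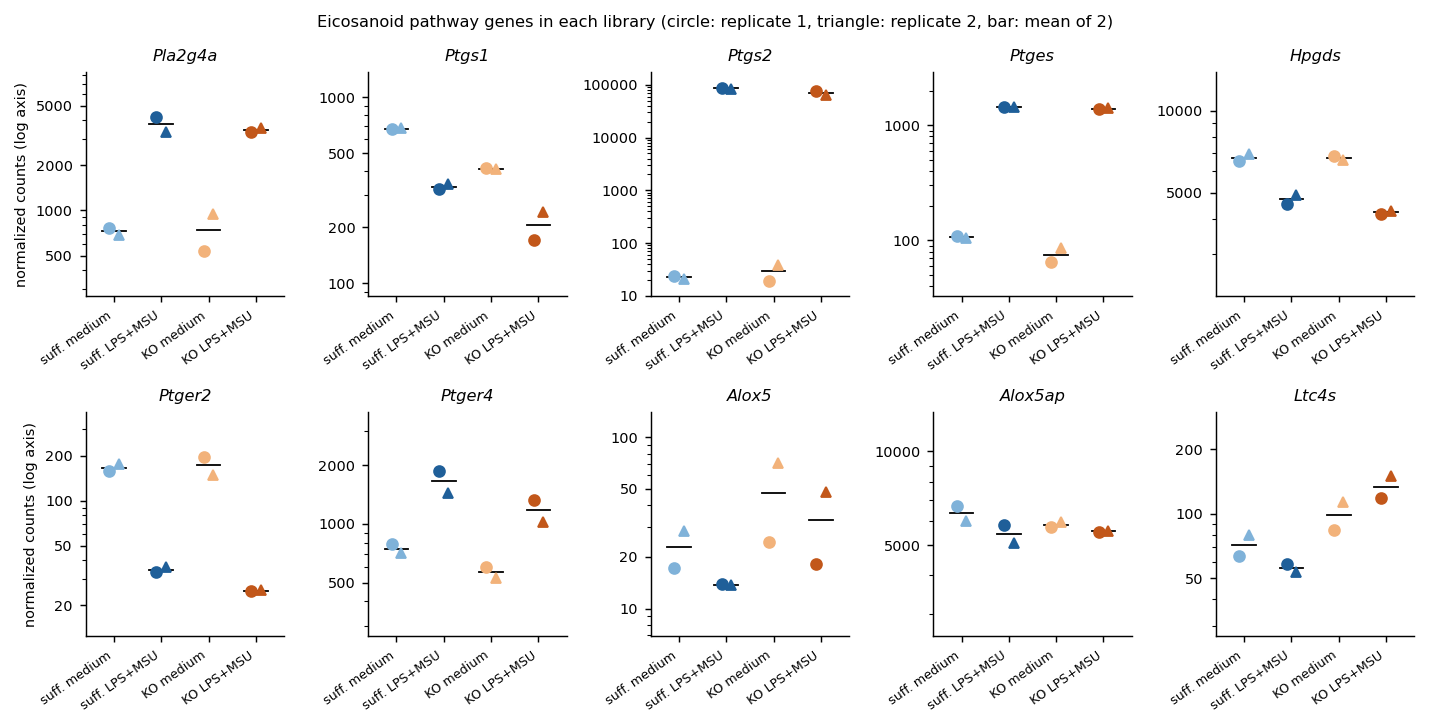
Normalized counts of the 10 genes in each library on log axes (1 panel per gene, 2 libraries per group, circles for replicate 1, triangles for replicate 2, bars for the mean; suff. is *Ncoa6*-sufficient and KO is *Ncoa6*-KO). *Ptgs2* goes from 19.5 to 38.6 in medium to 65402 to 87696 with LPS + MSU, and *Ltc4s* is the gene whose *Ncoa6*-KO libraries lie above all *Ncoa6*-sufficient libraries.

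The first question was how the pathway responded to LPS + MSU. In *Ncoa6*-sufficient BMDMs *Ptgs2*, *Ptges*, *Pla2g4a* and *Ptger4* rose and *Ptger2*, *Ptgs1* and *Hpgds* fell, whereas *Alox5*, *Alox5ap* and *Ltc4s* were not called. That made 7 of 10 genes at an edgeR adjusted p under 0.05, where 55.2% of all genes tested were called (24.7% higher and 30.5% lower). The median log2 fold change of the 10 genes was -0.289, against -0.116 over all genes. In *Ncoa6*-KO BMDMs the calls fell on these 7 genes in the same directions, where 53.1% of all genes were called (25.2% higher and 27.9% lower), with a median of 0.187 against -0.073. With total counts in place of TMM, *Alox5ap* (-0.89) and *Ltc4s* (-1.03) were also called lower in *Ncoa6*-sufficient BMDMs and *Alox5ap* (-0.71) in *Ncoa6*-KO BMDMs. In bulk RNA, fewer cells that express a gene and less RNA of it per cell cannot be told apart.

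*Pla2g4a*, at chr1:149829618-149961290 on the minus strand, supplies the arachidonic acid for all branches. In medium it had 766 and 687 normalized counts in the *Ncoa6*-sufficient and 534 and 941 in the *Ncoa6*-KO libraries, and with LPS + MSU it had 4192 and 3346 and 3349.5 and 3537. All 4 stimulated libraries were above all 4 medium libraries, and within each culture condition the genotypes overlapped. The rise was 5.19-fold in *Ncoa6*-sufficient BMDMs (log2 fold change 2.37 ± 0.215 SE, edgeR adjusted p = 2.65e-06) and 4.69-fold in *Ncoa6*-KO BMDMs (2.23 ± 0.214, 4.71e-06).

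*Ptgs2*, the COX-2 gene at chr1:150100031-150108227, went from 24.0 and 20.6 to 87696 and 83678 normalized counts in *Ncoa6*-sufficient BMDMs. In *Ncoa6*-KO BMDMs it went from 19.5 and 38.6 to 77336 and 65402. The medium values rest on 24 to 44 reads per library, and with LPS + MSU the gene took 0.185% to 0.229% of all counts. Its log2 fold change of 11.89 ± 0.274 (SE, edgeR adjusted p = 2.81e-10) ranked 5 by size among the 17625 genes in *Ncoa6*-sufficient BMDMs, and that of 11.30 ± 0.266 (2.71e-10) ranked 10 in *Ncoa6*-KO BMDMs. These are 3801-fold and 2517-fold rises.

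*Ptgs1*, the COX-1 gene at chr2:36230426-36252272, went the other way. It had 673 and 686 normalized counts in medium and 320.0 and 342 with LPS + MSU in *Ncoa6*-sufficient BMDMs, and 415 and 410.1 against 169.9 and 242 in *Ncoa6*-KO BMDMs. The stimulated libraries were below the medium libraries of their genotype without overlap, and the falls were 2.05-fold (log2 fold change -1.04 ± 0.141, edgeR adjusted p = 7.38e-05) and 2.01-fold (-1.01 ± 0.149, 1.56e-04). Per kb, *Ptgs2* made up 2.71 ± 0.315% of the summed cyclooxygenase level in *Ncoa6*-sufficient BMDMs in medium and 99.5 ± 0.0354% with LPS + MSU (SD, n = 2), and 5.61 ± 2.53% and 99.7 ± 0.120% in *Ncoa6*-KO BMDMs. Since this share is taken within a library, the scaling of libraries does not enter it.

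Of the terminal synthases, *Ptges* (chr2:30889471-30929863, minus strand) rose and *Hpgds* (chr6:65117293-65144908, minus strand) fell. *Ptges* had 109 and 105 normalized counts in medium and 1442 and 1452 with LPS + MSU in *Ncoa6*-sufficient BMDMs, and 65.3 and 85.2 against 1371 and 1419 in *Ncoa6*-KO BMDMs. Its rise was 13.5-fold (log2 fold change 3.76 ± 0.124, edgeR adjusted p = 1.32e-09) and 18.7-fold (4.22 ± 0.129, 8.21e-10). The constitutive PGE synthases *Ptges2* and *Ptges3* were not called in either genotype (-0.06 and 0.12 without the knockout, 0.27 and 0.18 in *Ncoa6*-KO BMDMs). The share of *Ptges* in the per-kb level of the 3 PGE synthases went from 2.28 ± 0.0990% to 22.6 ± 0.0212% in *Ncoa6*-sufficient and from 1.79 ± 0.160% to 23.0 ± 0.785% in *Ncoa6*-KO BMDMs, and *Ptges3*, which is also the HSP90 co-chaperone p23, held most of the rest.

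*Hpgds* had 6515 and 6919.6 normalized counts in medium and 4561 and 4929 with LPS + MSU in *Ncoa6*-sufficient BMDMs. In *Ncoa6*-KO BMDMs it had 6823 and 6604 against 4183 and 4305. The fall was small but larger than the spread in both genotypes, 1.42-fold (log2 fold change -0.50 ± 0.0927, edgeR adjusted p = 7.33e-04) and 1.58-fold (-0.66 ± 0.0929, 1.02e-04). Within libraries the per-kb ratio of *Hpgds* to *Ptges* was 36.6 and 40.3 in *Ncoa6*-sufficient BMDMs in medium, 63.9 and 47.4 in the *Ncoa6*-KO ones, and 1.86 to 2.08 in the 4 stimulated libraries.

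The PGE2 receptors moved in opposite directions. *Ptger2* (EP2, chr14:44988195-45003820) had 158 and 175 normalized counts in medium and 33.2 and 35.8 with LPS + MSU in *Ncoa6*-sufficient BMDMs, and 196 and 149 against 24.8 and 25.2 in *Ncoa6*-KO BMDMs. *Ptger4* (EP4, chr15:5206661-5244187, minus strand) had 785 and 705 against 1876 and 1439 in *Ncoa6*-sufficient BMDMs and 599 and 529.5 against 1321 and 1024 in *Ncoa6*-KO BMDMs. For each receptor the stimulated and medium libraries of a genotype did not overlap. *Ptger2* fell 4.79-fold and 6.90-fold (log2 fold change -2.26 ± 0.221 and -2.79 ± 0.231, edgeR adjusted p = 4.97e-06 and 1.42e-06), on 18 to 26 reads per stimulated library. *Ptger4* rose 2.22-fold and 2.08-fold (1.15 ± 0.150 and 1.06 ± 0.153, 5.21e-05 and 1.29e-04), and with total counts in place of TMM the rises were 0.48 and 0.42 and were still called.

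Among the 4 EP receptor genes, the per-kb share of *Ptger2* went from 17.4 ± 1.25% to 2.13 ± 0.313% in *Ncoa6*-sufficient and from 21.5 ± 1.68% to 2.16 ± 0.283% in *Ncoa6*-KO BMDMs. That of *Ptger4* went from 61.1 ± 4.72% to 79.0 ± 7.27% and from 55.2 ± 1.54% to 78.4 ± 4.64%. *Ptger1* (EP1) held 18.3% to 22.1% on average in the 4 groups and *Ptger3* (EP3) at most 1.31%. Part of *Ptger4* (82 exon bases) overlaps *Ttc33* on the opposite strand, which had 483 to 748 reads in the medium libraries and 185 to 248 with LPS + MSU, and the strand setting used for counting is not given in the sources used here.

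**Figure D2:**
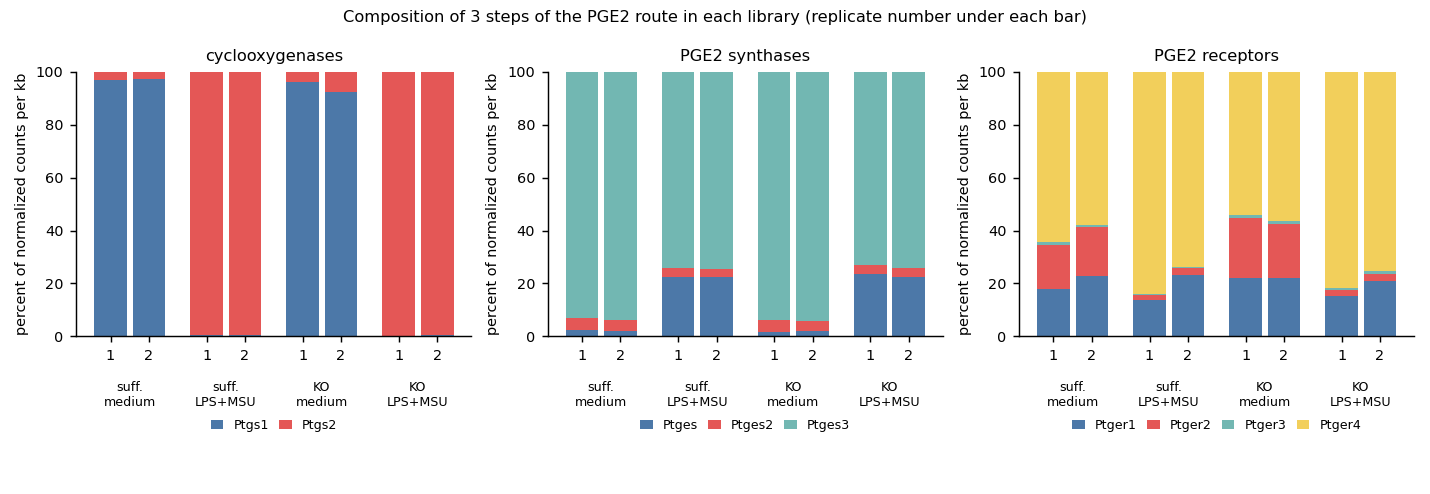
Percent of the summed normalized counts per kb held by each cyclooxygenase, each PGE synthase and each EP receptor gene in every library (stacked bars from 0 to 100, replicate number under each bar). *Ptgs1* fills nearly all of the medium bars and *Ptgs2* those with LPS + MSU, *Ptges* gains against *Ptges3*, and *Ptger2* shrinks while *Ptger4* grows.

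In the 5-lipoxygenase branch no change with LPS + MSU was called in either genotype. *Alox5ap* (FLAP, chr5:149264767-149288153), per kb the most abundant of the 10 genes in medium, had 6700.0 and 5997 normalized counts in medium and 5801 and 5094 with LPS + MSU in *Ncoa6*-sufficient BMDMs, and 5699.9 and 5947 against 5492 and 5573 in *Ncoa6*-KO BMDMs. The groups were apart but close, with log2 fold changes of -0.22 (95% interval -0.45 to 0.01, edgeR adjusted p = 0.0903) and -0.07 (-0.30 to 0.15, 0.575). *Alox5* (chr6:116410077-116461178, minus strand) was read 10 to 80 times per library. Its normalized counts were 17.3 and 28.4 in medium and 13.9 and 13.8 with LPS + MSU in *Ncoa6*-sufficient BMDMs, and 24.3 and 70.2 against 18.3 and 47.6 in *Ncoa6*-KO BMDMs. At this depth a change could not be told from the spread, since the intervals ran from -2.16 to 0.74 and from -1.71 to 0.69 on the log2 scale. FLAP transcripts exceeded those of the lipoxygenase by 245 to 1211 times per kb in the 8 libraries.

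*Ltc4s* (chr11:50236461-50238616, minus strand) was read 39 to 129 times per library. It had 63.8 and 80.0 normalized counts in medium and 58.2 and 53.7 with LPS + MSU in *Ncoa6*-sufficient BMDMs, and 84.1 and 113 against 119 and 149.7 in *Ncoa6*-KO BMDMs. The stimulated libraries lay below the medium libraries in the first genotype and above them in the second. Neither change was called (log2 fold change -0.36 ± 0.248 and 0.45 ± 0.220, edgeR adjusted p = 0.247 and 0.110), and with total counts in place of TMM the second was -0.19.

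The rest of the pathway was read from 7 lists of 65 genes, of which 55 were not among the 10 and 40 of these passed the filter. In *Ncoa6*-sufficient BMDMs 10 of the 40 rose and 12 fell, and in *Ncoa6*-KO BMDMs 11 rose and 7 fell, with 8 and 7 shared between genotypes. Of all genes tested, 24.7% rose and 30.5% fell in the first genotype and 25.2% and 27.9% in the second, and the counts of the 40 genes in *Ncoa6*-sufficient BMDMs lie near that background. Their median log2 fold change was -0.19 and 0.187, or 0.068 and 0.248 with the 8 genes that had at most 3 counts in each library of a group set to that floor or, where both groups were there, left out. *Fpr2*, a receptor for lipoxin A4 and formylated peptides, rose most, from 47.3 and 36.1 to 5873 and 5367 normalized counts in *Ncoa6*-sufficient BMDMs (log2 fold change 7.06) and from 13.2 and 20.2 to 3896 and 3300.5 in *Ncoa6*-KO BMDMs (7.77). *Cysltr2*, a receptor for cysteinyl leukotrienes, rose by 3.05 and 2.54.

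Of the 11 phospholipases 4 rose and 4 fell in *Ncoa6*-sufficient BMDMs, and 4 rose and 3 fell in *Ncoa6*-KO BMDMs. *Plaat3* rose by 3.68 and 3.35 and *Pla2g4c* by 2.68 and 3.57 on the log2 scale. *Pla2g15*, the lysosomal phospholipase, fell 3.99-fold and 3.46-fold, *Pla2g6* fell 3.17-fold and 2.63-fold and *Pla2g2e* fell 3.10-fold and 2.27-fold, whereas *Pla2g12a* fell 1.47-fold in *Ncoa6*-sufficient BMDMs and was not called in *Ncoa6*-KO BMDMs, genes that were named after their values were seen. *Hpgd*, the dehydrogenase that inactivates PGE2, fell from 106 and 86.9 to 9.70 and 12.4 normalized counts in *Ncoa6*-sufficient BMDMs and from 165 and 116 to 23.5 and 19.6 in *Ncoa6*-KO BMDMs (-3.11 and -2.7). *Fpr2*, *Cysltr2*, *Plaat3*, *Pla2g4c* and *Hpgd* were called in both genotypes, with edgeR adjusted p-values of at most 3.47e-04. By role and with the 10 genes included, 2 of 9 cyclooxygenases and prostanoid synthases rose and 4 fell in *Ncoa6*-sufficient BMDMs, as did 2 and 1 of 6 prostanoid receptors, 1 and 3 of 5 genes of breakdown and transport, 1 and 2 of 11 genes of leukotriene synthesis and breakdown, 3 and 0 of 5 leukotriene and lipoxin receptors and 1 and 1 of 3 other lipoxygenases. These lists are short and 55.2% of all genes were called, so the counts are given as a description of the lists.

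**Figure D3:**
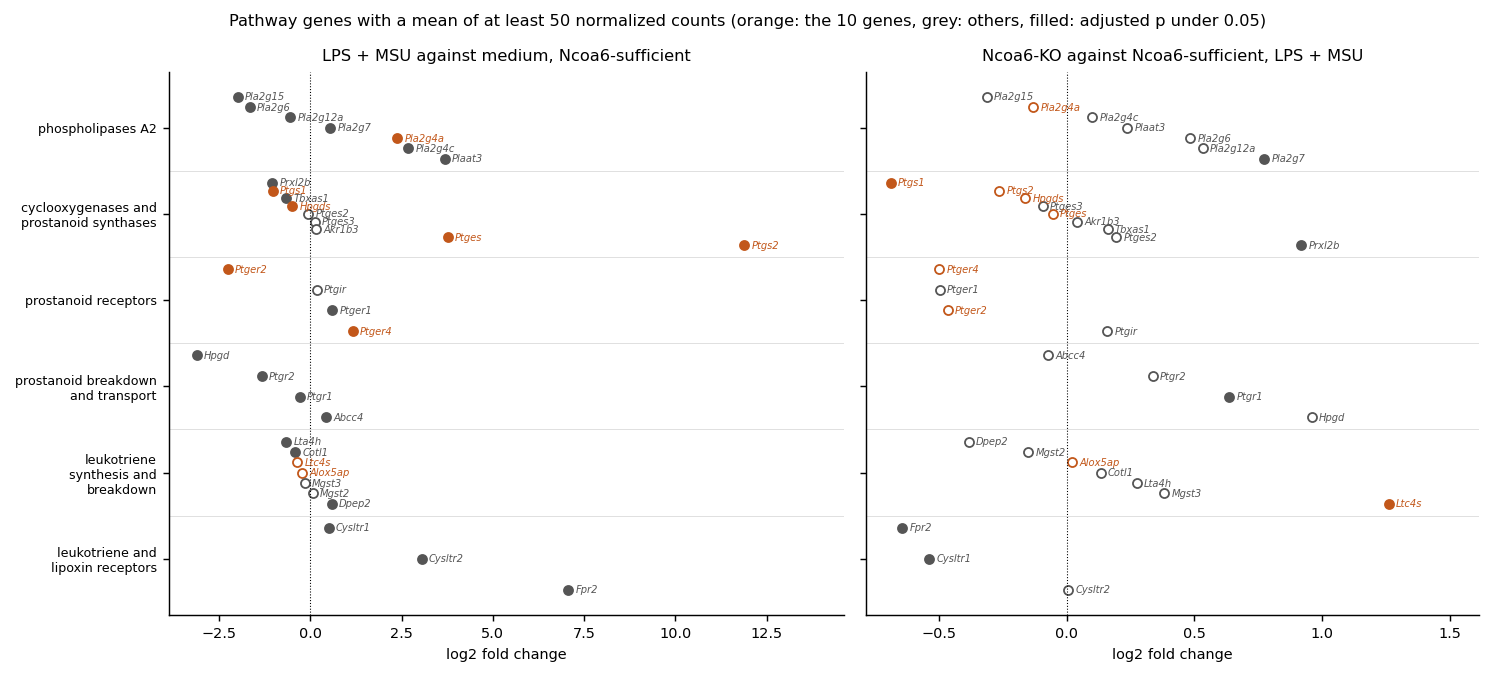
Log2 fold changes of pathway genes that averaged 50 or more normalized counts, in rows by role, for LPS + MSU against medium in *Ncoa6*-sufficient BMDMs (left) and for *Ncoa6*-KO against *Ncoa6*-sufficient BMDMs with LPS + MSU (right). Orange points are genes of the 10, grey points other pathway genes and filled points those with an edgeR adjusted p under 0.05; *Ptgs2* (11.89) and *Fpr2* (7.06) lie far to the right on the left side, and *Ltc4s* (1.26) does on the right side.

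The second question was how these genes differed between the genotypes, a difference called the knockout effect here. Only the *Ncoa6*-KO mice carried the Cre at *Lyz2*. The loss of *Ncoa6* and the presence of the Cre allele therefore cannot be told apart as sources of a difference. In medium *Ptgs1* was the gene called, lower in *Ncoa6*-KO BMDMs, which made 1 of 10 where 1.88% of all genes tested were called (0.573% higher and 1.3% lower). With LPS + MSU *Ptgs1* was again lower and *Ltc4s* was higher, 2 of 10 where 3.59% of all genes were called (1.96% higher and 1.63% lower). These comparisons share no libraries, but they come from the same fit with a shared estimate of the spread, and the same mice may have given the libraries of both. The median log2 fold change of the 10 genes was 0.007 in medium and -0.146 with LPS + MSU, against -0.032 and 0 over all genes. In the second comparison the calls over all genes were 345 higher and 287 lower with TMM, 346 and 503 with DESeq2 and 480 and 218 with total counts.

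*Ptgs1* in *Ncoa6*-KO BMDMs stood at 0.607 times its *Ncoa6*-sufficient level in medium and at 0.621 times with LPS + MSU, with the 2 *Ncoa6*-KO libraries below both *Ncoa6*-sufficient libraries each time. The log2 fold changes were -0.72 ± 0.135 (95% interval -1.02 to -0.42, edgeR adjusted p = 0.0259) and -0.69 ± 0.155 (-1.03 to -0.34, 0.0378). The first call was lost when any 1 of the 4 medium libraries was left out, at values of -0.73 to -0.68 over the libraries left out in turn, and the second without *Ncoa6*-sufficient library 1 or 2 of either condition or *Ncoa6*-KO library 1 with LPS + MSU, at -0.96 to -0.47. The second call also failed with total counts (-0.61, adjusted p = 0.0669), with limma-voom (-0.71, 0.0566) and with the 4 stimulated libraries fitted alone (-0.68, 0.103). Among the 8 macrophage markers 3 were called lower in each of these comparisons, where 1.88% and 3.59% of all genes were called. These included *Lyz2*, the locus that carries the Cre, whereas *Cd68*, *Adgre1*, *Csf1r* and *Mertk* were not called. The summed level of 7 stromal markers was 391 to 436 normalized counts in *Ncoa6*-sufficient against 143 to 471 in *Ncoa6*-KO BMDMs in medium and 917 to 967 against 353 to 841 with LPS + MSU, with all 7 above 3 counts in at least some library. The summed level of 6 megakaryocyte and platelet markers, cells that carry COX-1, was 1244 to 1791 against 803.5 to 922 in medium and 1611 to 2152 against 1165 to 1338 with LPS + MSU, with *Gp9* and *Gp5* at or under 3 counts in every library. *Pf4* made up 97% to 98.8% of that sum and was lower in *Ncoa6*-KO BMDMs (log2 fold change -0.83 and -0.60, edgeR adjusted p = 0.0430 and 0.103), whereas the other 5 markers together had 23.2 to 26.3 against 23.7 to 26.4 normalized counts in medium and 20.7 to 24.9 against 22.4 to 35.3 with LPS + MSU. The part of these cells in the *Ptgs1* result was not tested.

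*Ltc4s* was 2.40-fold higher in *Ncoa6*-KO than in *Ncoa6*-sufficient BMDMs with LPS + MSU (log2 fold change 1.26 ± 0.245, 95% interval 0.72 to 1.80, edgeR adjusted p = 0.0211), on 91 and 107 against 42 and 39 reads. In medium it was 0.45 ± 0.221 (-0.04 to 0.94, 0.436), again with all *Ncoa6*-KO above all *Ncoa6*-sufficient libraries. The call was lost without either *Ncoa6*-sufficient library or without *Ncoa6*-KO library 2 with LPS + MSU, at values of 1.08 to 1.40, and was kept under the other scalings and tests. *Ltc4s* shares 268 exon bases with the antisense gene *Gm26542*, which had 0 to 7 reads. Of the mast cell markers, *Cpa3*, *Mcpt4*, *Tpsb2*, *Tpsab1*, *Fcer1a* and *Ms4a2* were at or under 3 counts in every library, and the summed level of the 8 markers was 2187 to 2742 in *Ncoa6*-sufficient and 1929 to 2158 in *Ncoa6*-KO BMDMs with LPS + MSU, of which *Hdc* made up 96.4% to 99.2%. *Kit* had 68.0 and 69.95 normalized counts in *Ncoa6*-KO against 20.8 and 45.5 in *Ncoa6*-sufficient BMDMs with LPS + MSU, apart as *Ltc4s* was (log2 fold change 1.05, edgeR adjusted p = 0.240), and 590.2 and 319 against 278 and 342 in medium, where the genotypes overlapped (0.56, 0.413). The part of *Kit*-expressing cells in the *Ltc4s* result was not tested.

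**Figure D4:**
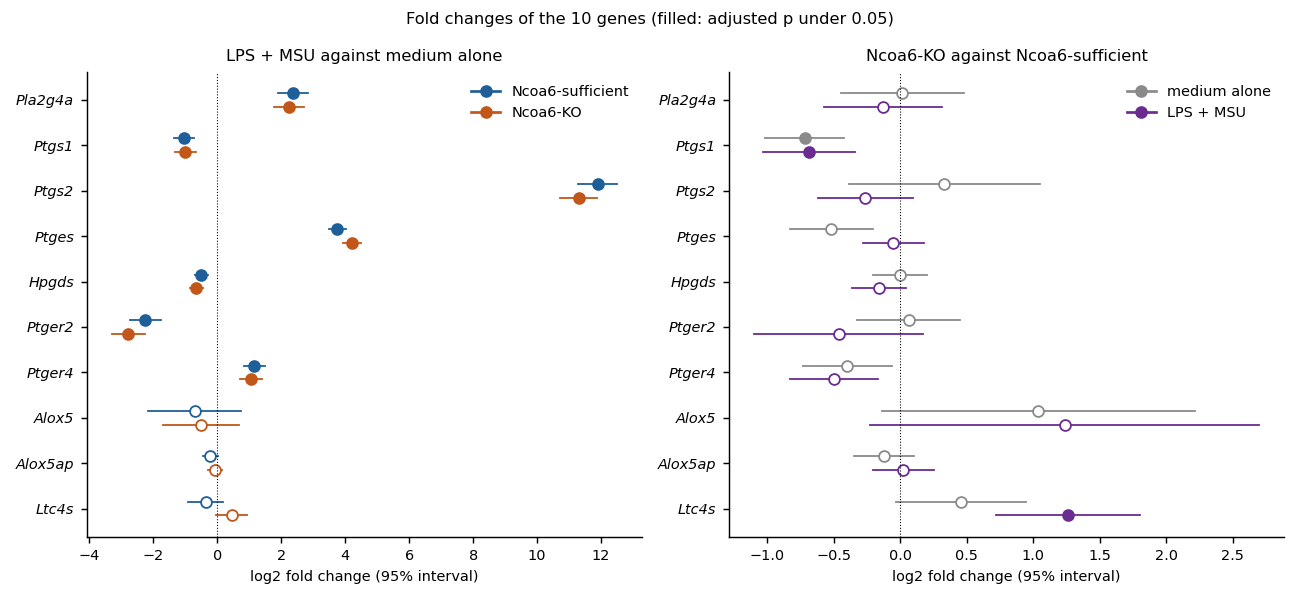
Log2 fold changes of the 10 genes with 95% intervals for LPS + MSU against medium in each genotype (left) and for *Ncoa6*-KO against *Ncoa6*-sufficient BMDMs in each culture condition (right). Filled points have an edgeR adjusted p under 0.05; 7 genes are filled in both genotypes on the left, and *Ptgs1* in both conditions and *Ltc4s* with LPS + MSU on the right.

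For the other 8 genes no difference between genotypes was called in the fit reported here, though some were under other settings. *Ptgs2* with LPS + MSU was 1.20-fold lower in *Ncoa6*-KO BMDMs without a call, its libraries apart (log2 fold change -0.26, 95% interval -0.62 to 0.09, edgeR adjusted p = 0.452), and in medium it was 0.33 (-0.39 to 1.05, 0.761). *Ptges* had values of -0.52 in medium (-0.83 to -0.20, 0.107) and -0.05 with LPS + MSU (-0.28 to 0.18, 0.853). *Ptger4* was lower in all *Ncoa6*-KO libraries of both conditions, by 1.32-fold and 1.41-fold (-0.40, -0.73 to -0.07, 0.271 and -0.50, -0.83 to -0.17, 0.105). With no filter on low counts *Ptges* in medium (adjusted p = 0.0353) and *Ptger4* in medium (0.0181) and with LPS + MSU (7.19e-04) were called, and DESeq2 called *Ptger4* with LPS + MSU (0.0398). Fits with a replicate block, whose pairing the sources do not give, called these as well. How many of all genes were called with no filter or with a block is not given here. With no filter the edgeR adjusted p of *Ncoa6* itself went from 0.00189 to 4.07e-19 with LPS + MSU.

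The 95% intervals on the log2 scale were -0.45 to 0.48 in medium and -0.58 to 0.32 with LPS + MSU for *Pla2g4a*, -0.20 to 0.20 and -0.37 to 0.04 for *Hpgds*, and -0.35 to 0.10 and -0.20 to 0.25 for *Alox5ap*. They were wider for *Ptger2* (-0.33 to 0.45 and -1.10 to 0.17) and widest for *Alox5* (-0.14 to 2.21 and -0.22 to 2.7). *Alox5* was highest in *Ncoa6*-KO library 2 of each condition, and without the one in medium its difference between genotypes there fell to 0.10.

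Of the 40 other pathway genes, 1 was higher and 3 were lower in *Ncoa6*-KO BMDMs in medium, and 3 were higher and 2 lower with LPS + MSU. Their medians were -0.1 and 0.16. Over all genes tested 1.88% were called in medium and 3.59% with LPS + MSU, with medians of -0.032 and 0. *Fpr2* was lower under both conditions (log2 fold change -1.35 and -0.64, edgeR adjusted p = 0.0300 and 0.0179), as was *Cysltr1*, the other cysteinyl leukotriene receptor, which had 878 and 921 against 557 and 454 normalized counts in medium and 1299.5 and 1252 against 975 and 783 with LPS + MSU (-0.83 and -0.54, 0.0108 and 0.0449). *Pla2g7*, which breaks down platelet-activating factor, was higher under both (0.89 and 0.77, 0.0381 and 0.0479). With LPS + MSU *Prxl2b*, a prostamide and PGF synthase, and *Ptgr1*, which reduces prostaglandins and inactivates LTB4, were also higher (0.92 and 0.64, 0.0187 and 0.0104), and in medium *Dpep2*, a dipeptidase that converts LTD4 to LTE4, was lower (-0.46, 0.0371). The symbol *Dpep2* belongs to 2 gene IDs, the lower of which was used, so this value is uncertain. Each of these 9 calls was lost when at least 1 of the 8 libraries was left out, without *Ncoa6*-sufficient library 1 of the condition compared in every case.

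The third question was whether the response to LPS + MSU differed between genotypes. By the interaction term of edgeR 0 of the 10 genes and 0 of all 17625 genes (0%) passed, with 2 of the 10 and 1045 of all genes at an unadjusted p under 0.05, and limma-voom and DESeq2 called 0 of the 10. Over all genes DESeq2 called 32 higher and 11 lower. The largest differences on the log2 scale were those of *Ltc4s* (0.81 ± 0.331, unadjusted 0.0335, edgeR adjusted p = 0.803), *Ptgs2* (-0.59 ± 0.365, 0.132 and 0.900) and *Ptger2* (-0.52 ± 0.337, 0.148 and 0.908), and that of *Ptges* was 0.47 ± 0.176 (0.0232 and 0.734). The 95% intervals were 0.08 to 1.54, -1.40 to 0.21, -1.27 to 0.22 and 0.08 to 0.85. For *Ptgs1*, which was lower in *Ncoa6*-KO BMDMs under both conditions, the term was 0.03 (-0.42 to 0.49), and among the 40 other pathway genes 0 passed, with 5 at an unadjusted p under 0.05.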

How the data were processed

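The study made stranded poly(A) libraries from BMDMs and sequenced them in pairs of reads. Per the labels and the methods of the study, the authors aligned reads with STAR 2.7.3a to GRCm38 and deposited expected counts per gene from RSEM 1.3.3, which are not normalized. Values were rounded, and genes whose 8 libraries summed to less than 10 were dropped. The means of the 4 groups were fitted by quasi-likelihood after TMM scaling (edgeR 4.0.16, R 4.3.3, 4 residual degrees of freedom), and genes were called at a Benjamini-Hochberg adjusted p under 0.05 over all 17625 genes tested, in a script tested on simulated counts. Groups followed the labels. No source states whether libraries with the same number share a mouse, so numbers were not used to pair libraries. Exact tests of 2 libraries against 2 cannot go below p = 0.333, so p-values come from fits across all genes.

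For display, counts were brought to a common effective library size, the mean of 29332189, and are called normalized counts. Levels per kb divide them by merged exon bases from GENCODE on GRCm38. Promoter windows came from RefSeq on GRCm38.p6, and protein sequences were not used here. The 10 genes, the pathway lists and the markers were chosen with earlier results of these data known. From the lists, the 5 genes per comparison with the largest absolute log2 fold change were named, among those called and averaging 50 or more normalized counts. Alternatives were DESeq2 1.42.0, its size factors in edgeR, limma-voom (limma 3.58.1), other filters, a limit of 1 on the absolute log2 fold change, replicate blocks, a fit of just the 4 libraries at hand, omission of each library in turn, and total counts in place of TMM, which was chosen after seeing the data.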

Additional observations from a re-analysis of the deposited data

Results flagged for a closer look

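*Ltc4s* moved in opposite directions with LPS + MSU in the genotypes, with every *Ncoa6*-sufficient library lower and every *Ncoa6*-KO library higher than the medium libraries. The difference between the responses was 0.81 on the log2 scale, with an edgeR adjusted p = 0.803 (0.0335 unadjusted), and the response in *Ncoa6*-KO BMDMs changed sign with total counts in place of TMM.

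*Ptges2*, a constitutive PGE synthase, was lower in *Ncoa6*-KO than in *Ncoa6*-sufficient BMDMs in medium (232 and 234 against 270.2 and 241 normalized counts) and higher with LPS + MSU (271 and 291 against 256 and 234). The difference between these effects was 0.33 on the log2 scale, with an edgeR adjusted p = 0.891 (0.101 unadjusted).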

How the results depend on the processing

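The calls of the response to LPS + MSU stayed at 7 of 10 genes in either genotype without each library in turn, and under the other alternatives they lay between 6 and 9, with no called gene changing direction. The knockout calls moved more. In medium the count of 1 became 0 with a limit of 1 on the absolute log2 fold change, 3 with no filter, 3 with a replicate block and 3 with a replicate block within each genotype, and 0 to 1 without 1 library. With LPS + MSU the count of 2 became 1 with the limit on the fold change, with total counts, with limma-voom and in a fit of just the 4 libraries at hand, 4 with the replicate block within each genotype, and 0 to 2 without 1 library. With DESeq2, with no filter and with the replicate block *Ptger4* was called with LPS + MSU as well. In these larger counts *Ptges* and *Ptger4* joined *Ptgs1* in medium, and *Ptger4* (also with DESeq2) and then *Pla2g4a* joined with LPS + MSU. How many of all genes were called with no filter or with a block is not given here, so these larger counts have no background beside them. In medium the edgeR adjusted p of *Ncoa6* itself went from 0.00236 to 5.21e-17 with no filter. It went to 6.42e-06 with the replicate block and to 6.47e-08 with the block within each genotype. The cause was not tested. The interaction gave 0 of 10 throughout.

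Values of genes not called changed sign as follows on the log2 scale. In medium, the knockout effect of *Pla2g4a* (0.02) was -0.049 with limma-voom and -0.35 with the block within each genotype, and that of *Hpgds* (0.00) was 0.0173 with DESeq2, 0.0172 with its size factors, 0.0339 with total counts, 0.0061 with filterByExpr, 0.0005 and 0.05 with the replicate blocks and 0.0222 with the 4 libraries compared alone. With LPS + MSU, the knockout effect of *Ptges* (-0.05) was 0.0195 with total counts, and that of *Alox5ap* (0.02) was -0.0151 with DESeq2 or its size factors and -0.0822 with the block within each genotype. The interaction of *Ptgs1* (0.03) was -0.023 with DESeq2 and -0.0235 with its size factors, and the response of *Ltc4s* in *Ncoa6*-KO BMDMs (0.45) was -0.19 with total counts.

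Without 1 library, the knockout effect in medium ranged from -0.44 to 0.37 for *Pla2g4a*, -0.20 to 0.78 for *Ptgs2*, -0.0428 to 0.0442 for *Hpgds* and -0.15 to 0.24 for *Ptger2*. With LPS + MSU it ranged from -0.30 to 0.0301 for *Pla2g4a* and -0.0805 to 0.11 for *Alox5ap*. The response of *Alox5* in *Ncoa6*-KO BMDMs ranged from -1.34 to 0.43, and the interaction from -0.51 to 0.31 for *Pla2g4a*, -0.28 to 0.21 for *Ptgs1*, -0.35 to 0.0576 for *Ptger4* and -0.68 to 1.13 for *Alox5*.

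Deviations of same-numbered libraries from their group means correlated over 11219 genes at 0.31 and 0.369 between culture conditions of a genotype and at 0.052 to 0.199 between genotypes. These values leave a pairing within a genotype possible, but no source states one, so the numbers were treated as names. With 2 libraries per group, the p-values set differences of group means against a spread that is estimated from these samples and moderated across all genes tested. *Ptgs2* in medium, *Alox5*, *Ltc4s* and *Ptger2* with LPS + MSU rest on few reads, which limits their precision.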

Other observations

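2 noncoding genes annotated beside *Ptgs2* were looked at after their values were seen. *Ptgs2os* runs on the opposite strand and starts 68 bases before the start of *Ptgs2*. It had 0 reads in all 4 medium libraries and, with LPS + MSU, 6 and 7 in *Ncoa6*-sufficient and 7 and 3 in *Ncoa6*-KO BMDMs. *Ptgs2os2*, a lincRNA gene 50816 bases past the end of *Ptgs2*, had 5.25 and 6.02 normalized counts in medium and 335 and 427 with LPS + MSU in *Ncoa6*-sufficient BMDMs, and 1.39 and 14.0 against 339.8 and 341 in *Ncoa6*-KO BMDMs. It rose by 6.05 and 5.56 on the log2 scale (edgeR adjusted p = 3.79e-07 and 6.10e-07), and the genotypes overlapped in medium. *Pla2g4a*, which also rose, starts 138741 bases from the start of *Ptgs2* on the opposite strand of chromosome 1.

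Mast cells make histamine as well as leukotrienes, and RNA of *Hdc*, the histidine decarboxylase gene of histamine synthesis, was seen in these cultures. Histamine itself was not measured. *Hdc* rose from 9.01 and 6.02 to 2720 and 2141 normalized counts in *Ncoa6*-sufficient BMDMs and from 5.56 and 3.51 to 2090 and 1859 in *Ncoa6*-KO BMDMs (log2 fold change 8.30 and 8.69, edgeR adjusted p = 3.75e-10 and 3.90e-10), while 6 of the 8 mast cell markers stayed at or under 3 counts. *Kit* fell in the same comparisons (-3.22 and -2.72, edgeR adjusted p = 1.68e-05 and 2.43e-05).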
